A study of Mus musculus with 4 samples.

Results

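The 57 genes described here encode kinesins, kinesin light chains, cytoplasmic dynein and dynactin. They were chosen by symbol from the 32531 gene names of the count files: names that begin with Kif and a digit, Kifc, Klc1 to Klc4, Dync, Dynl or Dctn, with 10 or more counts in at least 2 libraries. Of 67 names with such a symbol, 57 met the count rule, and all 57 were tested. Just inside the rule lay Dynlt1f, with 4 and 9 counts in IP and 13 and 10 in input. Just outside lay Dynlrb2, with 5 and 8 counts in IP and 29 and 9 in input. Further names outside it were Dynlt1b, Kif18b, Kif2c, Kifc1, Kifc5b and Klc3, with at most 29 counts in any library, and Kif12, Kif2b and Kif4-ps, with 0 counts in all 4.

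The libraries came from cerebral cortex of adult mice of the Cbln1-TRAP line NIDA030, in which a ribosomal protein, Rpl10a, is fused to EGFP and placed under the control of Cbln1 regulatory sequence. In translating ribosome affinity purification, an antibody against EGFP pulls tagged polysomes out of the homogenised tissue, and the RNA they carry is sequenced. IP libraries 2 and 4 held this ribosome-bound RNA, and input libraries 2 and 4 held total RNA of cortex. All 4 libraries carry the transgene, so input is the whole tissue of the same line and not a transgene-free control. The labels do not say how many animals went into a library or whether libraries of 1 group came from separate animals, and p-values therefore cover the spread between these libraries alone, which may be technical. Lane 1 held the IP libraries and lane 2 the input libraries, and the effect of the lane cannot be told apart from that of the group.

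Counts assigned to genes ranged from 39750468 to 47567384 per library. Cbln1 itself stood at 99.3 and 68.6 CPM (read counts scaled to the normalised library size) in IP, against 11.9 and 8.55 CPM in input. Of 6 markers of neurons in general 5 rose in IP. All 5 glutamatergic markers rose (summed level 5198 and 5468 CPM in IP, 3655 and 3941 CPM in input), whereas 0 of 5 GABAergic markers rose and 2 fell. With library sizes alone, without that normalisation, 2 of the 5 glutamatergic markers rose and 0 fell. In that setting 5 of the 6 general neuron markers still rose, and 0 GABAergic markers rose and 3 fell. Of 6 oligodendrocyte markers 2 rose and 4 fell, with a summed level of 1232 and 1261 CPM in IP and 1599 and 1505 CPM in input. Of 5 astrocyte markers 2 rose and 1 fell, and the 4 endothelial markers summed to 3.66 and 4.46 CPM in IP and 7.04 and 4.74 CPM in input. Of 5 microglia markers 1 rose and 2 fell, and of 3 markers of oligodendrocyte precursors 1 rose. No marker in these lists, nor in those of ependymal and dividing cells, was at 0 in all libraries. The part of these markers' cell types in the motor gene results was not tested. In bulk RNA, fewer cells of a type and less RNA per cell cannot be told apart.

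Kinesins and dynein are the motors that move cargo along microtubules. Most kinesins walk toward the microtubule plus end, which in an axon points away from the cell body, and cytoplasmic dynein walks toward the minus end. Neurons depend on both, because vesicles, mitochondria and cytoskeletal proteins must travel the length of the axon and dendrites, and dynein needs the dynactin complex and a cargo adaptor to run over long distances. Other kinesins do not carry cargo but build the mitotic spindle or work in cilia.

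What makes a kinesin a motor is an ATP-binding head, and its phosphate-binding loop can be read in the coding sequence. The pattern searched for in the translated reading frame was a glycine, any 4 residues, a glycine, a lysine and then threonine or serine. It was found in all 35 kinesin members, in 5 of the other 22 members (Dync1h1, Dync1li1, Dync1li2, Dync2h1 and Dync2li1), and in 4.31% of all 21817 coding genes. The light chains and the dynactin genes, which are not motors, held no match. Dync1li1, Dync1li2 and Dync2li1, which did match, are light intermediate chains and not motor subunits either. A match alone therefore does not mark a motor. The windows below are shown for Kif5a and Kif5c, a pair that moved in opposite directions in IP. Each is 60 coding bases from GENCODE vM21 transcripts on GRCm38, the assembly also called mm10, written 5′ to 3′ on the coding strand with the 24 bases of the loop in capitals.
Kif5a: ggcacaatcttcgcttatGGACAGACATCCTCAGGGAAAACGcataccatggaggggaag
Kif5c: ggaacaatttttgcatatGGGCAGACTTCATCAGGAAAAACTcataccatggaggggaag
The Kif5a window lies in exons 3 and 4, between the ends chr10:127247622-127248083 on the minus strand, and the Kif5c window in exons 3 and 4, within chr2:49680185-49688658 on the plus strand. Kif5a and Kif5c shared 51 of the 60 bases (85.0%). Over the whole transcript 0% of the 50-base words of Kif5a, Kif5c, Kif1a, Kif1b or Kif1c occurred in a transcript of another gene, at a read length assumed to be 50 bases.

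Of the 57 motor genes, 26 rose in IP (45.6%), 6 fell (10.5%) and 25 were not called. A gene was called when its p from edgeR's quasi-likelihood test, adjusted by the Benjamini-Hochberg method over 16600 genes, was under 0.05. Over all genes tested, 23.4% rose and 22.4% fell, 45.8% in either direction. The median log2 fold change, IP over input, was 0.28 for the motor genes and -0.04 for all genes. Most differences were small: 51 of the 57 lay within 2-fold, 4 were at least 2-fold higher in IP (Klc2, Dctn2, Klc1 and Dync1li1) and 2 at least 2-fold lower, Kif1c and Kif4, of which Kif4, at 12 and 31 counts in IP and 49 and 52 in input, was not called. The IP and input libraries did not overlap in 50 members, with IP above input in 32 and below it in 18. Among all genes tested those shares were 35.3% and 37.8%.

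The direction went with abundance. All 26 genes that rose were among the 38 members averaging 5 CPM or more, where 5 fell. Among all genes at that level 34.3% rose and 20.5% fell, 54.8% in either direction. The 19 rarer members, which include the spindle and ciliary kinesins, held 1 gene that fell and 0 that rose, against 25.9% and 3.77% of all genes under 5 CPM (29.7% in either direction). Of those 19, 0 were higher and 2 lower at an unadjusted p under 0.05, and DESeq2 called 0. The members' summed share of all gene counts was 0.976% and 0.985% in IP, against 0.876% and 0.898% in input.

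The split depended on how the libraries were scaled. With library sizes alone the median of all genes moved to -0.29, and 17 motor genes rose and 12 fell. In that setting Dync1i2, Dynlrb1, Kif18a and Kif2a changed sign, and Kif5c, Kif5b, Kif1b, Kif21b, Klc4, Dynll1, Dynlt3, Dctn6 and Dync1i2 were no longer called. Of the 32 called members, 22 were called under every one of the 12 alternatives tried.

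**Figure D1:**
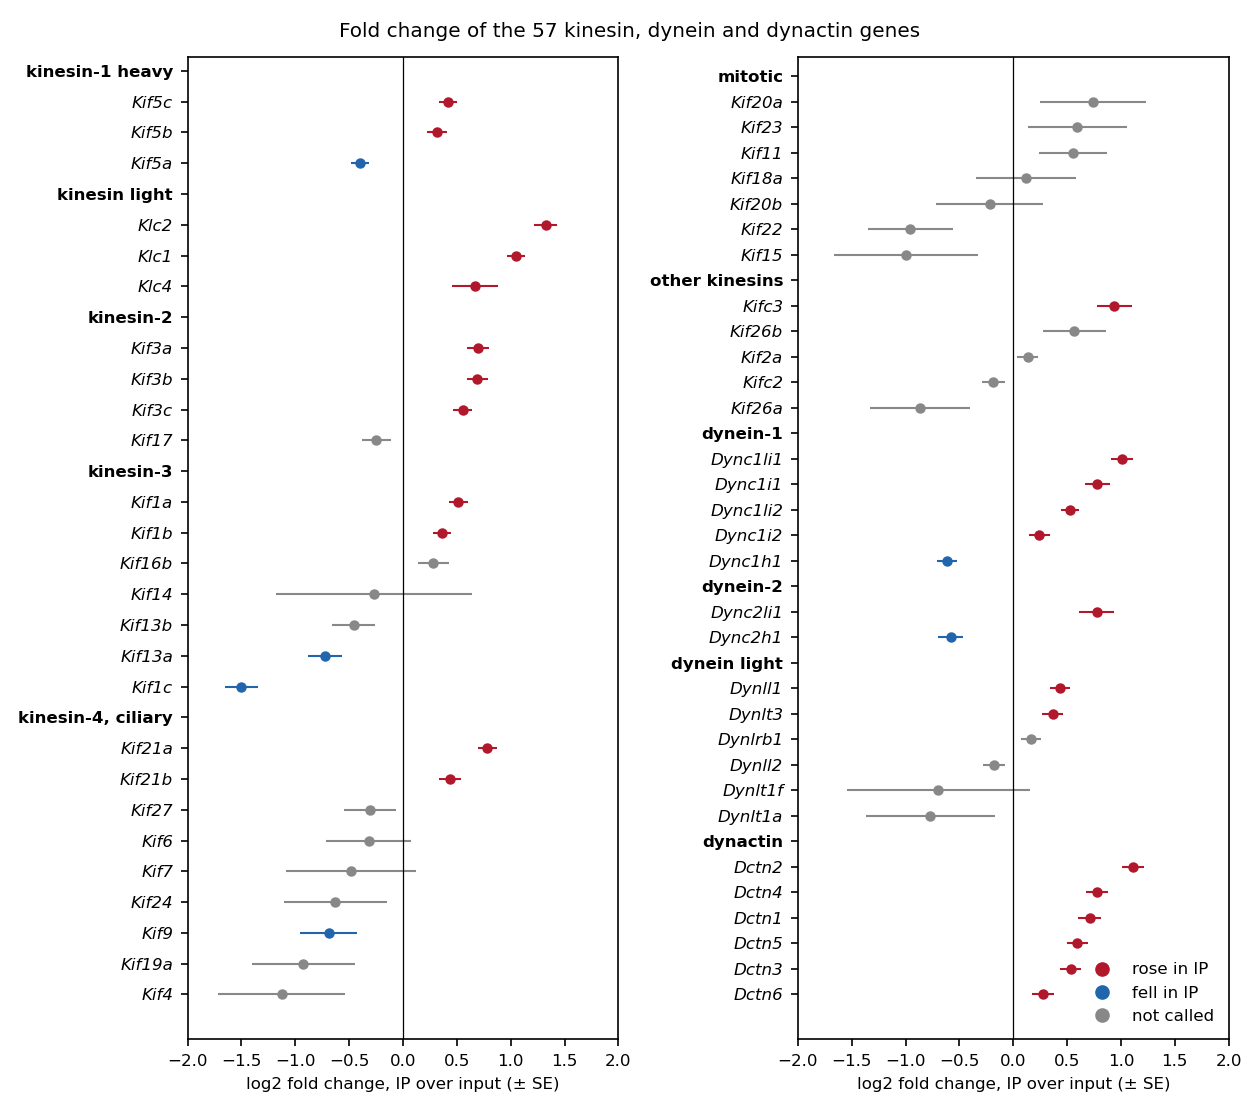
Log2 fold change of IP over input (x axis, points with standard error bars) for each of the 57 motor genes, grouped by role from top to bottom. The kinesin light chains, the dynactin genes and most dynein-1 subunits lie right of 0, and Kif1c lies farthest left at -1.50. Low-count genes such as Kif14 and Dynlt1f have the widest error bars.

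Kinesin-1, the main anterograde transporter, is built of heavy chains, the motors, and light chains that bind cargo. All 3 light chain genes rose, and the heavy chain genes moved apart. Klc2 stood at 273.6 and 292.4 CPM in IP, against 101.3 and 125.0 CPM in input. That is 2.50-fold higher in IP, the largest rise of any member (log2 fold change 1.32, SE 0.11, edgeR adjusted p = 1.22e-08). Klc1, the most abundant light chain, held 822.2 and 804.4 CPM in IP and 390.4 and 397.6 CPM in input, 2.06-fold higher (log2 fold change 1.05, SE 0.09, edgeR adjusted p = 1.61e-08). Both genes overlap an exon on the opposite strand, Klc2 with AC124502.1 and Klc1 with Xrcc3, so reads from that stretch are uncertain if strand was not used, and 12.5% of the 50-base words of Klc2 occur in other genes. The low-level Klc4 rose too, at 8.02 and 7.10 CPM in IP and 4.62 and 4.92 CPM in input (log2 fold change 0.66, SE 0.21, edgeR adjusted p = 0.016). Leaving out IP 2 or input 2 ended its call (adjusted p = 0.0615 and 0.0716).

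Kif5a, the neuron-specific heavy chain that moves neurofilaments among other cargoes, fell in IP while Kif5c and Kif5b rose. Kif5a held 675.2 and 700.8 CPM in IP, against 900.6 and 920.1 CPM in input (log2 fold change -0.40, SE 0.08, edgeR adjusted p = 0.000647). Kif5c, which is enriched in neurons, held 1361 and 1385 CPM in IP and 1006 and 1056 CPM in input (log2 fold change 0.41, SE 0.08, edgeR adjusted p = 0.000458). In neither gene did an IP library overlap an input library. Kif5b, the heavy chain made in most cells, held 192.7 and 216.9 CPM in IP and 166.3 and 162.5 CPM in input (log2 fold change 0.32, SE 0.09, edgeR adjusted p = 0.0103). Leaving out IP 4 ended the Kif5b call (adjusted p = 0.0942), and Kif5b overlaps the opposite-strand genes AC113003.1 and Gm17036.

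The balance between the heavy chains does not depend on scaling, because it is a ratio within each library. Per kilobase of exon, Kif5a made up 31.0% and 31.2% of the 3 heavy chains in IP, against 44.35% and 43.9% in input. Kif5c made up 61.2% and 60.3% in IP and 48.5% and 49.3% in input. Counts of Kif5a per count of Klc1 were 0.821 and 0.871 in IP and 2.31 and 2.31 in input. In each of these shares and ratios the libraries of 1 group lay closer to each other than to either library of the other group. The genes set against Kif5a had already been called in the opposite direction, so the separation of the groups follows from those calls and adds no separate support. With 2 libraries against 2, the smallest p that an exact two-sided permutation test allows is 0.333, so no such test is reported.

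**Figure D2:**
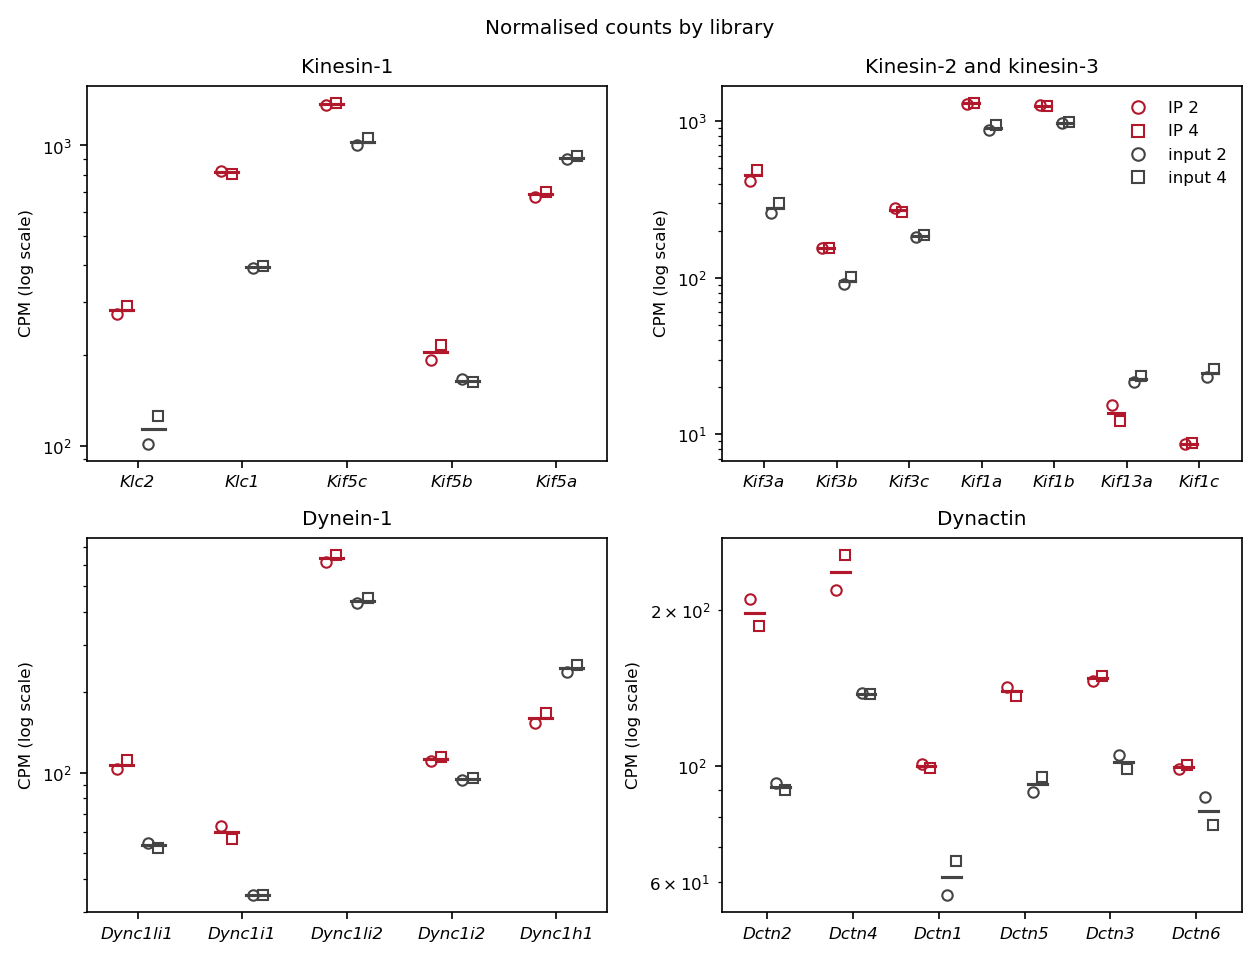
Normalised counts (CPM, log scale) of the main kinesin-1, kinesin-2, kinesin-3, dynein-1 and dynactin genes in each library, with IP left of input for each gene, circles for number 2, squares for number 4 and a bar at each group mean. Kif5a, Kif13a, Kif1c and Dync1h1 are the genes whose IP libraries lie below input. In every other gene shown, IP lies above input without overlap.

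Kinesin-2 motors form heteromers that carry vesicles in axons and build cilia. The 3 genes of those heteromers rose together. Kif3a, the shared subunit, held 413.7 and 490.6 CPM in IP and 259.1 and 299.6 CPM in input, 1.62-fold higher (log2 fold change 0.69, SE 0.10, edgeR adjusted p = 1.87e-05). Its partner Kif3b was 1.61-fold higher, at 153.9 and 155.1 CPM in IP and 91.2 and 100.6 CPM in input (edgeR adjusted p = 1.21e-05). Kif3c, an alternative partner of Kif3a, was 1.47-fold higher, at 277.6 and 263.0 CPM in IP and 181.9 and 186.4 CPM in input (edgeR adjusted p = 6.07e-05). Of the 50-base words of the longest Kif3c transcript 43.4% also occur in other genes, mainly the opposite-strand 1110002L01Rik, so its level is uncertain. Kif17, a dendritic motor that carries NMDA receptor subunits, did not rise with them: it held 18.8 and 20.5 CPM in IP and 23.0 and 23.7 CPM in input (log2 fold change -0.25, edgeR adjusted p = 0.143), and it was called lower under 3 of the 12 alternatives. Its exons overlap Sh2d5 on the same strand.

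The kinesin-3 family split. Kif1a, which carries synaptic vesicle precursors and dense core vesicles, held 1295 and 1307 CPM in IP and 873.1 and 947.7 CPM in input (log2 fold change 0.51, SE 0.08, edgeR adjusted p = 6.52e-05). Kif1b, which has isoforms for mitochondria and for synaptic vesicle precursors, held 1272 and 1249 CPM in IP and 976.8 and 981.7 CPM in input (log2 fold change 0.36, SE 0.08, edgeR adjusted p = 0.00132). These were among the most abundant members. Kif1c, a motor that many cell types use, was the member that fell the most: 330 and 378 counts in IP against 1058 and 1132 in input, or 8.68 and 8.74 CPM in IP against 23.3 and 26.2 CPM in input. It was 2.83-fold lower in IP (log2 fold change -1.50, SE 0.15, edgeR adjusted p = 2.44e-07), and the microRNA gene Mir6925 lies within its exons. Per kilobase of exon Kif1c made up 0.562% and 0.566% of the Kif1 trio in IP and 2.10% and 2.23% in input.

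Other kinesin-3 genes were less abundant. Kif13a, an endosome and Golgi transport motor, fell, with 15.3 and 12.1 CPM in IP and 21.7 and 23.6 CPM in input (log2 fold change -0.72, SE 0.15, edgeR adjusted p = 0.000795). Its relative Kif13b held 6.24 and 8.67 CPM in IP and 10.3 and 10.2 CPM in input and did not pass (log2 fold change -0.46, edgeR adjusted p = 0.065), although it was called lower under 5 of the 12 alternatives, among them a stricter filter (adjusted p = 0.0328), library sizes alone (adjusted p = 0.00446) and the set without IP 4 (adjusted p = 0.00978). Kif16b, a motor of early endosomes, stood at 21.4 and 23.75 CPM in IP and 17.7 and 19.5 CPM in input and did not pass (edgeR adjusted p = 0.108). Several marker lists had a median log2 fold change below 0, the direction of Kif1c and Kif13a. The medians were -0.44 for oligodendrocytes (2 of 6 markers rose and 4 fell), -0.24 for GABAergic neurons and -0.54 for both endothelial and ependymal cells. They were -0.10 for microglia and -0.08 for oligodendrocyte precursors. Of the 4 endothelial markers 0 were called, and of the 3 precursor markers 1 rose and 0 fell. The ependymal list includes the dynein genes Dnah9 and Dnah11, which both fell. Other lists had medians above 0: 0.17 for astrocytes, 0.19 for dividing cells, 0.43 for glutamatergic neurons and 1.13 for neurons in general. The part of any of these cell types in the fall of Kif1c and Kif13a was not tested.

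**Figure D3:**
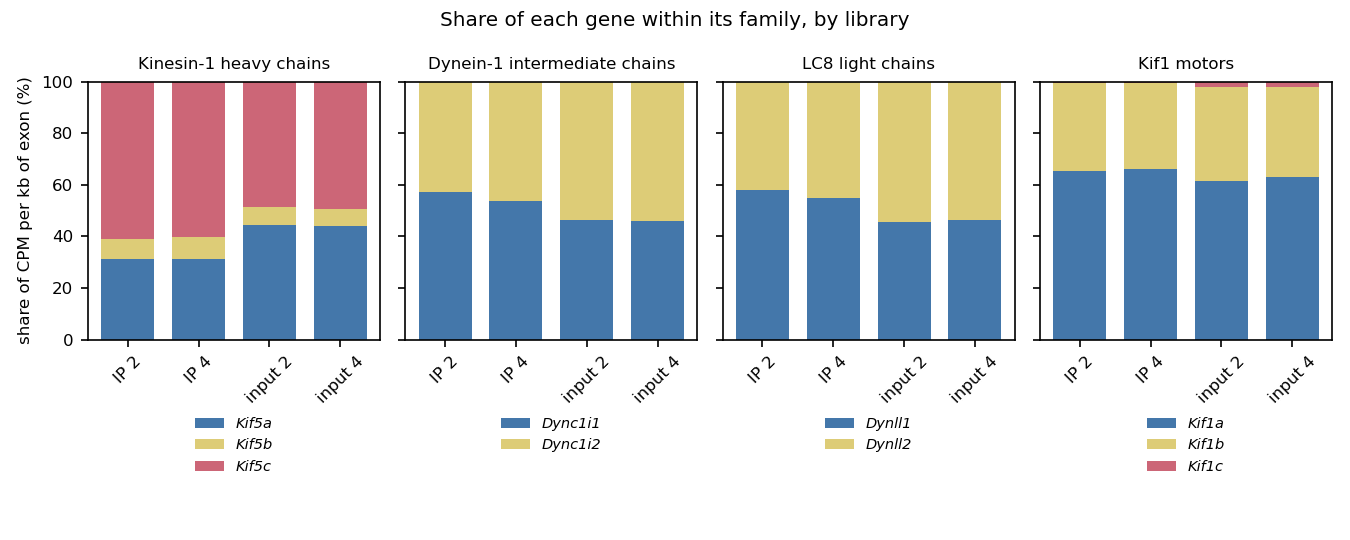
Share of each gene within its family, as a percentage of the family's CPM per kilobase of exon (y axis), in each library with IP left of input. Kif5a holds about the same share in both IP libraries (31.0% and 31.2%) and a larger one in input (44.35% and 43.9%). Dync1i1 and Dynll1 hold a larger share in IP than in input.

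Of the kinesin-4 and ciliary kinesins, the 2 neuronal genes rose. Kif21a held 480.0 and 513.9 CPM in IP and 277.3 and 300.6 CPM in input, 1.72-fold higher (log2 fold change 0.78, SE 0.09, edgeR adjusted p = 1.15e-06). Kif21b, its close relative, held 107.4 and 115.9 CPM in IP and 75.3 and 89.8 CPM in input (log2 fold change 0.44, SE 0.11, edgeR adjusted p = 0.00241). The other 7 genes of that group were low, between 0.516 and 5.32 CPM by group mean, and all had negative log2 fold changes, of which Kif9 alone passed. Kif9, a kinesin of motile cilia, had 137 and 122 counts in IP and 207 and 252 in input (log2 fold change -0.69, SE 0.27, edgeR adjusted p = 0.0393), and DESeq2 (adjusted p = 0.0665) or leaving out IP 4 or input 4 (adjusted p = 0.166 and 0.293) ended that call.

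Axonemal dyneins, the motors of motile cilia, are not members but were counted for the comparison: of 18 such genes in the files 16 were tested, 0 rose and 6 fell (edgeR quasi-likelihood test). Over all genes 22.4% fell, and 25.9% of those under 5 CPM, the level of most axonemal genes. DESeq2 also called 0 higher and 6 lower, and at an unadjusted p under 0.05 the counts were 0 and 7. The 6 ependymal markers, of cells that bear motile cilia, summed to 8.74 and 10.1 CPM in IP and 11.6 and 12.2 CPM in input. That list shares Dnah9 and Dnah11 with the axonemal dyneins, so its values are not independent of theirs. Both shared genes fell (log2 fold change -1.14 and -3.43). The part of ependymal cells in these values was not tested.

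The 7 spindle kinesins were low in this adult tissue, and 0 of 7 were called by edgeR's quasi-likelihood test or by DESeq2. At an unadjusted p under 0.05, 1 of them, Kif22, was lower in IP, with 36 and 83 counts in IP and 143 and 106 in input. Its edgeR adjusted p was 0.054, and it was called lower under 6 of the 12 alternatives, among them a stricter filter, no filter and library sizes alone. Kif11, which slides spindle microtubules apart and was the most abundant of them, had 194 and 137 counts in IP and 98 and 150 in input. Its groups overlapped, and it did not pass (log2 fold change 0.56, edgeR adjusted p = 0.164). Without IP 4 or without input 4 it was called higher (adjusted p = 0.0202 and 0.0456), as under 1 further alternative of the 12. The group summed to 11.7 and 10.8 CPM in IP and 10.6 and 10.8 CPM in input, beside 8.58 and 7.91 CPM in IP and 9.26 and 8.64 CPM in input for the 7 markers of dividing cells, whose part in these values was not tested.

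Among the remaining kinesins, Kifc3, a minus-end motor of epithelial and other cells, rose 1.92-fold, with 16.7 and 19.8 CPM in IP and 9.74 and 9.31 CPM in input (log2 fold change 0.94, SE 0.16, edgeR adjusted p = 0.000108). Genes on the opposite strand overlap its exons, and 23.1% of its 50-base words occur in other genes. Kifc2, a motor abundant in neurons and the most abundant of this group, held 204.7 and 168.7 CPM in IP and 223.4 and 200.9 CPM in input. The groups overlapped and it did not pass (log2 fold change -0.18, edgeR adjusted p = 0.158), although it was called lower under 5 of the 12 alternatives, among them the GC and length correction (log2 fold change -0.38, adjusted p = 0.00389) and the set without IP 2 (adjusted p = 0.0248). Kif2a, which takes microtubules apart at their ends, held 148.6 and 162.0 CPM in IP and 141.1 and 142.1 CPM in input (edgeR adjusted p = 0.266). On the opposite strand Kifc2 overlaps Cyhr1 and Kif2a overlaps Dimt1.

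Cytoplasmic dynein-1 is the main retrograde motor. Its heavy chain fell in IP and all 4 genes for its intermediate and light intermediate chains rose. Dync1h1, the motor subunit, held 153.2 and 166.6 CPM in IP, against 238.2 and 252.6 CPM in input (log2 fold change -0.62, SE 0.09, edgeR adjusted p = 2.66e-05). Dync1li1, a light intermediate chain that links the motor to cargo adaptors, held 102.9 and 111.5 CPM in IP and 54.35 and 52.4 CPM in input, 2.01-fold higher (log2 fold change 1.01, SE 0.10, edgeR adjusted p = 2.33e-07). The more abundant Dync1li2 held 612.4 and 655.3 CPM in IP and 432.0 and 448.9 CPM in input, 1.44-fold higher (edgeR adjusted p = 6.90e-05). Dync1h1 overlaps Gm17111 and Gm35558, and Dync1li2 overlaps K230015D01Rik, in each case on the opposite strand.

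Both intermediate chains, which bind dynactin, rose, and the neuronal form had a larger share of the pair in IP than in input. Dync1i1, made mainly in neurons, held 63.1 and 56.6 CPM in IP and 34.7 and 34.95 CPM in input (log2 fold change 0.78, SE 0.11, edgeR adjusted p = 1.57e-05). Dync1i2, made in most cells, held 110.2 and 114.0 CPM in IP and 93.7 and 95.8 CPM in input, and passed narrowly (log2 fold change 0.24, SE 0.10, edgeR adjusted p = 0.0445). The Dync1i2 call was lost when any 1 of the 4 libraries was left out (adjusted p from 0.0566 to 0.170) and with a stricter filter (adjusted p = 0.118), and with library sizes alone its log2 fold change was -0.02. Per kilobase of exon Dync1i1 made up 57.02% and 53.5% of the pair in IP and 46.2% and 45.8% in input. Which gene of the pair is the larger depends on the length used. Dync1i2 has 8.28 kb of joined exon but a longest transcript of 4523 bases, against 3.57 kb and 2718 bases for Dync1i1. The shift between the groups does not depend on it. Counts of Dync1h1 per count of Dync1li2 were 0.250 and 0.254 in IP and 0.551 and 0.563 in input.

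Dynein-2, the retrograde motor inside cilia, showed the same split between heavy and light intermediate chain. Its heavy chain Dync2h1 fell, at 34.6 and 32.6 CPM in IP and 47.8 and 52.6 CPM in input (log2 fold change -0.58, SE 0.12, edgeR adjusted p = 0.000449). Its light intermediate chain Dync2li1 rose, at 15.02 and 17.8 CPM in IP and 9.70 and 9.49 CPM in input (log2 fold change 0.77, SE 0.16, edgeR adjusted p = 0.00078).

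Of the small dynein light chains, Dynll1 and Dynlt3 rose and 4 did not pass. Dynll1, a light chain that is also a hub for many other proteins, held 221.1 and 220.7 CPM in IP and 168.7 and 158.5 CPM in input (log2 fold change 0.43, SE 0.09, edgeR adjusted p = 0.00075). Dynll2, whose protein is nearly the same, held 112.1 and 127.0 CPM in IP and 142.2 and 128.9 CPM in input (log2 fold change -0.18, edgeR adjusted p = 0.152). Dynll1 made up 58.1% and 55.0% of the pair per kilobase in IP and 45.5% and 46.4% in input. Dynll1 has 3.89 kb of joined exon but a longest transcript of 2242 bases. These shares therefore show the shift between groups and not which gene is the larger. Dynlt3 held 275.9 and 236.2 CPM in IP and 200.1 and 196.9 CPM in input (log2 fold change 0.37, SE 0.10, edgeR adjusted p = 0.00426), a call lost without IP 2 (adjusted p = 0.051). Dynlrb1 held 198.8 and 213.8 CPM in IP and 178.7 and 189.4 CPM in input (edgeR adjusted p = 0.158).

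The Dynlt1 genes had few counts, and their sequences show a limit of the counting. Reads that align to several places were set aside, and these copies on chromosome 17 are nearly identical. Their first 60 coding bases are printed beside those of Dynlt3, with bases that differ from Dynlt1a in capitals.
Dynlt1a: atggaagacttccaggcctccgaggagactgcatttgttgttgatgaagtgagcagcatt
Dynlt1f: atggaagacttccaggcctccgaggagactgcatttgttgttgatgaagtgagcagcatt
Dynlt1b: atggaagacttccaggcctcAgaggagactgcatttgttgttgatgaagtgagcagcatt
Dynlt3: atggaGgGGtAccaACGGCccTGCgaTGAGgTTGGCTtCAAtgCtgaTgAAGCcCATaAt
Each window spans exons 1 and 2 on GRCm38: Dynlt1a between the ends chr17:6314926-6317400 (minus strand), Dynlt1f within chr17:6653320-6655800 (minus strand), Dynlt1b within chr17:6430212-6431912 (plus strand) and Dynlt3 within chrX:9660992-9662898 (minus strand). Dynlt1f had 0 and Dynlt1b 1 mismatch to Dynlt1a, whereas Dynlt3 had 35. Of the 50-base words of the longest transcript, 77.4% in Dynlt1a, 88.0% in Dynlt1f and 83.2% in Dynlt1b occurred in another gene, against 0% in Dynlt3. Dynlt1a had 21 and 21 counts in IP and 50 and 29 in input, so its level and its direction (log2 fold change -0.77, edgeR adjusted p = 0.315) rest on the few reads that could be assigned.

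Dynactin, the activator that dynein needs for long runs, rose as a group, with 6 of 6 Dctn genes higher in IP and a median log2 fold change of 0.65, or 0.39 with 5 of 6 called when library sizes alone were used. Dctn2, the shoulder subunit dynamitin, held 209.2 and 185.6 CPM in IP and 92.7 and 89.9 CPM in input, 2.16-fold higher (log2 fold change 1.11, SE 0.10, edgeR adjusted p = 4.43e-08). Dctn1, the large subunit that binds microtubules and dynein, held 101.0 and 99.1 CPM in IP and 56.5 and 65.9 CPM in input, 1.64-fold higher (edgeR adjusted p = 2.20e-05). Dctn4, at the pointed end of the complex, held 217.7 and 255.2 CPM in IP and 138.3 and 137.5 CPM in input, 1.72-fold higher (edgeR adjusted p = 3.45e-06). Dctn5 and Dctn3 were 1.51-fold and 1.45-fold higher (edgeR adjusted p = 5.92e-05 and 0.000155), and in all 6 genes the groups did not overlap. Dctn6 rose the least, with 98.8 and 100.5 CPM in IP and 87.3 and 77.0 CPM in input (log2 fold change 0.28, SE 0.10, edgeR adjusted p = 0.0313). Leaving out IP 4 or input 4 (adjusted p = 0.0752 and 0.258) or filtering more strictly ended its call. The opposite-strand gene Gm26768 overlaps its exons.

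The rest of the dynactin complex carries other symbols and was counted with the motors' partners. Actr1a and Actr1b, which form its actin-like filament, were 1.98-fold and 1.46-fold higher, Actr10, at the filament's pointed end, 1.85-fold, and the capping protein genes Capzb and Capza2 2.32-fold and 1.52-fold. Capzb held 434.9 and 408.5 CPM in IP and 189.0 and 175.2 CPM in input (log2 fold change 1.21, SE 0.09, edgeR adjusted p = 6.09e-09). Capza1 alone did not pass, at 5.18 and 7.05 CPM in IP and 5.28 and 6.49 CPM in input (edgeR adjusted p = 0.855), and it overlaps St7l on the opposite strand. Together 11 of these 12 dynactin genes rose, with a median log2 fold change of 0.66, a grouping made after the values were seen. Among all genes at 5 CPM or more 34.3% rose. Counts of Dync1h1 per count of Dctn1 were 1.52 and 1.68 in IP and 4.22 and 3.83 in input.

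Among 48 partners of the motors present in the files, chiefly adaptors and regulators, 20 rose, 8 fell and 20 did not pass, with a median log2 fold change of 0.17, beside 23.4% and 22.4% of all genes. Of the 44 partners at 5 CPM or more 45.45% rose and 15.9% fell, against 34.3% and 20.5% of all genes at that level. These partners include the actin-like and capping genes counted above with dynactin, of which all but Capza1 rose. The higher share is therefore in part the dynactin result again. With library sizes alone 12 of the 48 partners rose and 13 fell. Besides the dynactin subunits the largest rises included Clstn1, calsyntenin 1, an axonal cargo receptor that binds kinesin light chains, at 976.5 and 997.1 CPM in IP and 486.4 and 469.4 CPM in input (log2 fold change 1.05, SE 0.08, edgeR adjusted p = 1.52e-08). The largest falls among partners at 5 CPM or more were Nde1 and Numa1. Nde1, a dynein regulator of dividing progenitors, held 3.32 and 3.42 CPM in IP and 7.13 and 8.34 CPM in input (log2 fold change -1.20, SE 0.23, edgeR adjusted p = 0.000285). Numa1, which anchors dynein at spindle poles, held 19.1 and 23.4 CPM in IP and 39.7 and 44.6 CPM in input (log2 fold change -0.99, SE 0.13, edgeR adjusted p = 7.77e-06). Each overlaps a gene on the opposite strand, Marf1 and Il18bp.

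Further partners were picked after their values were seen, for their link to members above. Kifap3, the non-motor subunit of kinesin-2, rose 1.75-fold (edgeR adjusted p = 6.12e-07), close to Kif3a and Kif3b, and counts of Kif3a per count of Kifap3 were 0.971 and 1.08 in IP and 1.04 and 1.19 in input. Madd, an adaptor of Kif1a and Kif1b, rose 1.83-fold (edgeR adjusted p = 9.24e-07). Pafah1b1, the dynein regulator whose loss causes lissencephaly, held 574.5 and 579.7 CPM in IP and 531.7 and 564.4 CPM in input and did not pass (edgeR adjusted p = 0.504). Htt and Hook3, both dynein scaffolds, fell, with log2 fold changes of -0.56 and -0.82 (edgeR adjusted p = 0.000151 and 9.49e-07). The remaining partners that fell were Mapk8ip2, Mapk8ip1, Trak1 and the low-count Rilp, with log2 fold changes of -0.88, -0.40, -0.32 and -2.13. Their relatives differed: Mapk8ip3 rose (log2 fold change 0.49) and Trak2 did not pass (-0.04). The opposite-strand genes 1700047A11Rik and Gm45411 overlap Hook3.

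**Figure D4:**
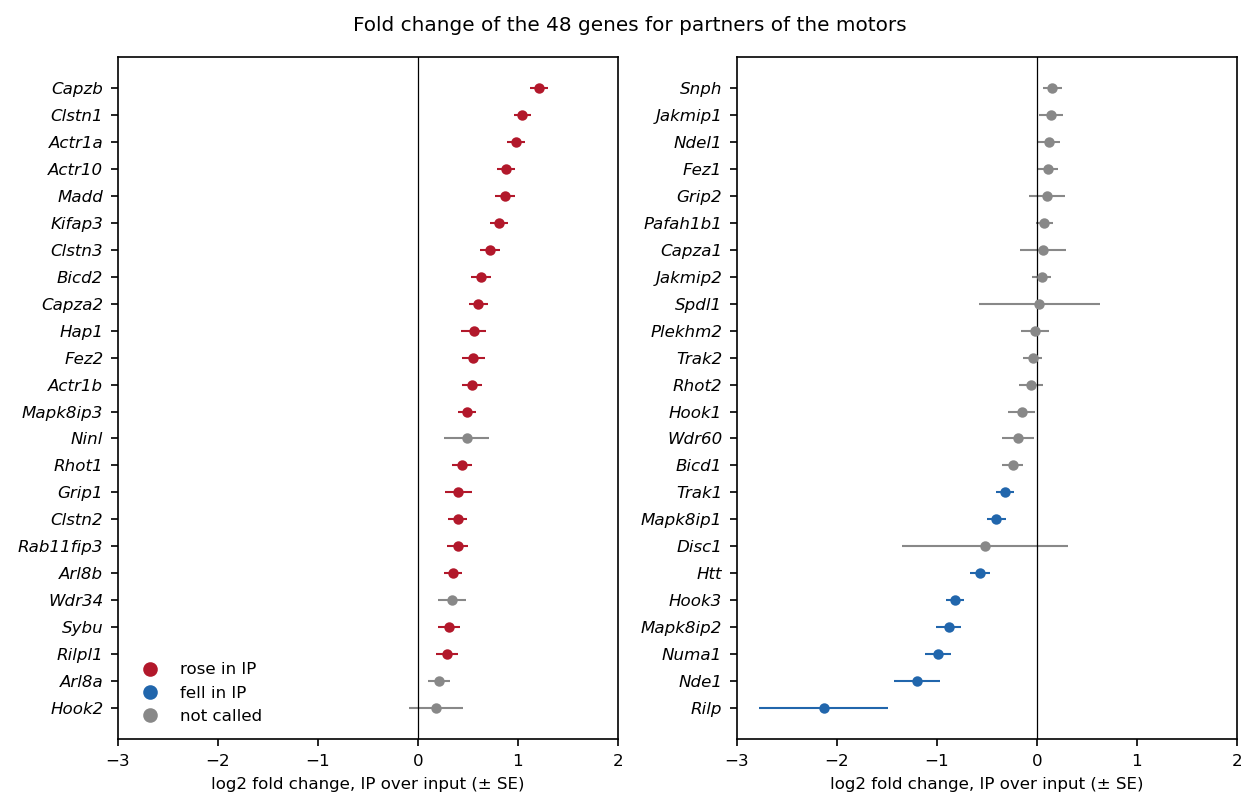
Log2 fold change of IP over input (x axis, points with standard error bars) for the 48 partner genes, sorted from the highest at the top left to the lowest at the bottom right. Capzb (1.21), Clstn1 (1.05) and Actr1a (0.98) head the left panel, and Nde1 (-1.20) and Rilp (-2.13) end the right one.

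Among the more abundant members, those that fell were long. Of the 38 members averaging 5 CPM or more, 19 had less than 6 kb of exon in the annotation, and of these 15 rose and 0 fell. Of the 19 with 6 kb or more, 11 rose and 5 fell: Kif5a (6.99 kb), Kif1c (7.28 kb), Kif13a (8.09 kb), Dync1h1 (15.7 kb) and Dync2h1 (16.35 kb). Other members with 6 kb or more of annotated exon rose, among them Kif1b (17.6 kb), Kif21b (12.2 kb) and Dctn4 (11.6 kb). These lengths join all annotated exons. The longest single transcripts of those 3 genes had 10233, 9254 and 4331 bases, so Dctn4 is long only by joined exons. For Kif5a, Kif1c, Kif13a, Dync1h1 and Dync2h1 the longest transcripts had 6295, 6684, 6866, 14342 and 14264 bases. Below 5 CPM Kif9, with 4.30 kb, also fell. Over all genes at 5 CPM or more, 1161 of 4001 with 6 kb or more rose and 1096 fell, 1568 and 697 of 4205 with 3 to 6 kb, and 910 and 280 of 2263 under 3 kb. Spearman's rho between exon length and log2 fold change was -0.34 over the 38 members and -0.19 over all genes at that level, given as a description, since genes share the libraries. After correction of each library for GC content and length, the log2 fold changes were -0.46 for Kif5a, -1.57 for Kif1c, -0.73 for Kif13a, -0.57 for Dync1h1 and -0.34 for Dync2h1 (edgeR adjusted p from 1.49e-07 to 0.0172).

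**Figure D5:**
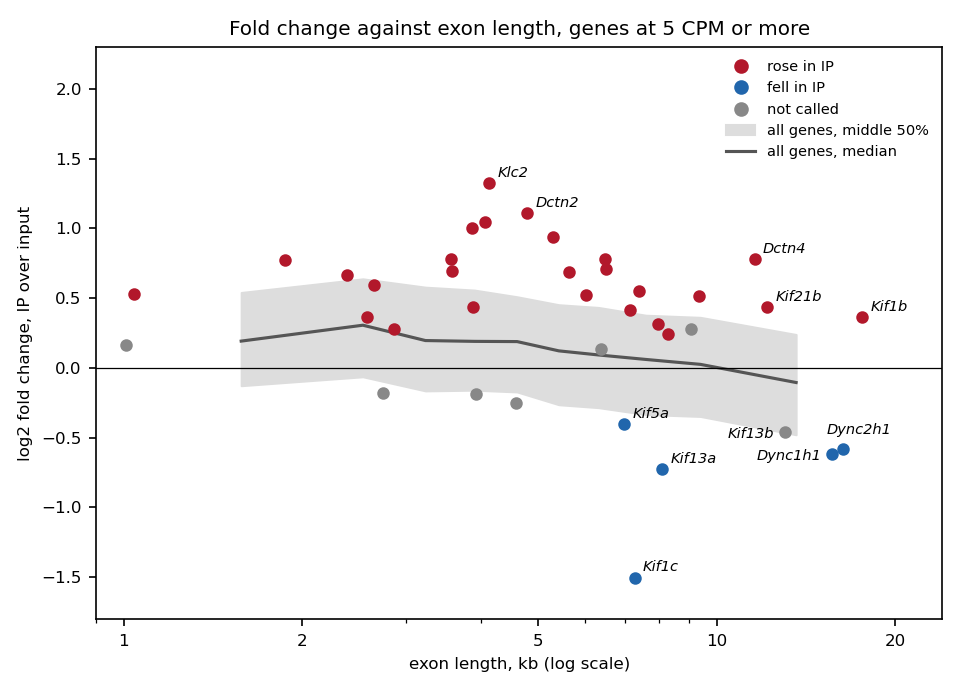
Log2 fold change of IP over input (y axis) against exon length in kilobases (x axis, log scale) for the 38 motor genes averaging 5 CPM or more. The grey band and line give the middle 50% and the median of all genes at that level in 10 length bins, and the 5 genes that fell all have more than 6 kb of exon.

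Compared per kilobase of exon, the order of abundance among motors was led by small and neuronal genes. In IP the highest levels were Dynlrb1 with 204.5 CPM per kb, Klc1 with 200 and Kif5c with 192. In input they were Dynlrb1 with 182, Kif5c with 144 and Kif5a with 130. Kif5a stood at 98.4 CPM per kb in IP. The heavy chain Dync1h1 stood at 10.2 CPM per kb in IP and 15.7 in input. Of its light intermediate chains, Dync1li2 was higher in both groups, at 105 CPM per kb in IP and 73.1 in input, whereas Dync1li1 was higher in IP, at 27.7, and lower in input, at 13.8. Lengths are those of all annotated exons joined, so a gene with unused annotated exons is understated. The order between genes can change with the lengths used.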

How the data were processed

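Polysomal and total RNA of cortex were compared in 4 libraries, 2 IP and 2 input. The submitters' processing notes name STAR 2.0.0e, HTSeq and mm10; annotation, strand setting and read length were not stated. The deposited values are raw read counts per gene symbol, made by the authors, 1 file per library. HTSeq's summary lines stayed out of library sizes and tests. These classes differed by group. Reads without a unique alignment were 37.0% and 38.0% of records in IP, against 32.1% and 30.7% in input. Reads in no feature were 7.31% and 7.54% in IP, against 14.9% and 13.5% in input. Ambiguous reads were 1.54% in both IP libraries, against 5.07% and 5.09% in input. What this did to members with overlapping exons was not tested.

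The test was run in R 4.3.3 with edgeR 4.0.16 (TMM, filterByExpr with a minimum count of 10, quasi-likelihood test of IP against input, two-sided, standard error from the log2 fold change and F), with p-values adjusted over 16600 genes. The common biological coefficient of variation was 12.5%, with 2 residual degrees of freedom. The test added 16.8 prior degrees of freedom drawn from the spread of all genes, so its p-values rest largely on that shared spread. A floor of 3 counts equals 0.0660 to 0.0789 CPM, which covers counting error only. Replicates differed beyond sampling noise (chi-square over its degrees of freedom 21.2 in IP and 14.5 in input). On simulated counts for this comparison (16284 genes), 78% of genes changed 1.5-fold and 96% of those changed 2-fold were called, with 13 false calls. The changed genes all averaged 5 CPM or more, so these figures do not cover the rarer members. They were also a small part of all genes, whereas 45.8% of all genes were called in the data.

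Positions, lengths and coding sequence came from GENCODE vM21 (GRCm38), which matched all 57 members. Of 57 members, 21 have exons that overlap those of another gene by position, on either strand. Shared words were counted at 50 bases, an assumed read length. The members and lists were chosen with earlier results of these data known. A rule chose genes for fuller description: up to 4 called members per role with the largest fold change at 5 CPM or more, and the most abundant (up to 6 for partners). For some of these the standard error, library values or adjusted p were left out. Other members are named with their values where a call was narrow or lost. Alternatives were DESeq2 1.42.0, edgeR with DESeq2's size factors or with unscaled library sizes, no filter, a stricter filter (minimum 50), a GC and length correction (values for 91.0% of genes tested), a replicate block, and leaving out each library.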

Additional observations from a re-analysis of the deposited data

How the results depend on the processing

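With library sizes alone, 17 motor genes rose and 12 fell (of 57), 12 partners rose and 13 fell (of 48), and 2153 of all genes rose and 5902 fell. It moves fold changes down by construction. The replicate block with GC content and transcript length gave 11 motor genes that fell. Leaving out 1 library at a time gave 24 to 26 motor genes that rose and 5 to 8 that fell, 17 to 20 and 6 to 8 partners, and 3323 to 3720 and 2670 to 3421 of all genes. The labels do not say that equal numbers mark the same animal. The differences between numbers 2 and 4 correlated at 0.05 between IP and input across genes. A low correlation cannot decide whether equal numbers share an animal, because noise in either group would also lower it. With the replicate block 26 motor genes rose and 9 fell, and every member called without it was called with it. The other settings (DESeq2, its size factors, filters, GC and length) moved no count of motor genes past 1.5 times: 24 to 29 rose and 5 to 9 fell. For the 36 genes chosen by rule for fuller description, 413 of 432 single values kept direction and call, 11 lost the call, 8 gained it and 0 changed direction. Among the other members Dync1i2, Dynlrb1, Kif18a and Kif2a changed sign with library sizes alone, and Kif14, Kif20b and Kif7, not called by the report's test, under the block or with 1 library left out. Dynlrb1, Kif16b and Kif2a were called higher under 2 of the 12 alternatives each, both with the GC and length correction, and Dynll2 lower under 3. Depth limits the members under 5 CPM, where counts per library were as low as 3.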
